A study of Mus musculus with 6 samples.

Results

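Paraxial, intermediate and lateral mesoderm are the divisions of the trunk mesoderm from which somites, kidney and gonads, and heart, vessels and body wall arise. The 8 transcription factors described here, Msgn1, Tcf15, Meox1, Foxc1, Foxc2, Lhx1, Osr1 and Twist1, act in these divisions and lie outside the T-box and Sox families. They were set by name, and their rows were found by gene symbol, without a cut on a measured value. Earlier results of these data were known when the factors were chosen. Of the 8 factors, 6 had a row among the 14005 genes of the table, and all 6 were among the 13991 genes tested. Meox1 and Osr1 have no row in the table used here, by symbol or by identifier.

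RNA-seq libraries came from FLK1+ cells of day 3.5 embryoid bodies (EBs), the aggregates in which mouse embryonic stem (ES) cells form mesoderm, and FLK1 is the VEGF receptor encoded by Kdr. The 2 groups were J1 wild-type (WT) cells and Scl-/- cells, in which the blood regulator Scl (Tal1) is disrupted, with 3 libraries each from 3 independent differentiations. The strain is labelled C57Bl/6 X Sv129 in 3 of the libraries, and the last number counts up over the others. Each genotype was a separate ES cell line, so that genotype and cell line cannot be told apart, and FLK1+ cells were taken on magnetic columns after antibody staining. The authors deposited CPM values (reads on a gene scaled to library size), and the reads on listed genes worked out at 38623641 to 47621120 per library, so that 3 reads, the limit that a count of 0 allows, correspond to 0.0615 to 0.0784 CPM (counting error only). Tal1 itself had 303, 182 and 306 CPM in WT and 9.35, 5.68 and 5.87 CPM in Scl-/- replicates 1 to 3, a log2 fold change of -5.14 (limma, adjusted p = 6.7e-04).

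Of the 6 factors measured, Lhx1 and Msgn1 were higher in Scl-/- cells, and both were called only where the replicate number was a block in the model. Lhx1 was 4.45-fold higher on the log2(CPM + 0.5) scale and Msgn1 was 1.61-fold higher. Foxc1 was also higher and Tcf15 and Foxc2 lower in 3 of 3 same-numbered pairs, without passing the test, and the values of Twist1 lay on both sides of no change. Of the 6, limma called 0 without the block, with 1 (Msgn1) at an unadjusted p under 0.05. Here a gene is called when its Benjamini-Hochberg adjusted p over all 13991 genes is under 0.05 and its absolute log2 fold change is above 0.48. Without the block, 2.36% of all genes were called, and 17.7% had an unadjusted p under 0.05. With it, 2 of the 6 factors were called beside 12.6% of all genes, and both were higher in Scl-/- cells beside 6.04% of all genes. With the block 4 of the 6 had an unadjusted p under 0.05, beside 36.9% of all genes.

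The factors stand at different steps of mesoderm patterning. Msgn1 is a basic helix-loop-helix (bHLH) factor of the presomitic mesoderm, the unsegmented paraxial tissue, and Tcf15 (paraxis) and Meox1 act later, when somites become epithelial and are patterned. Foxc1 and Foxc2 are forkhead factors of paraxial and intermediate mesoderm that also act in vessels. Lhx1 (Lim1), a LIM-homeodomain factor, is present in the primitive streak and its early mesoderm and later in the intermediate mesoderm and nephric duct, where Osr1, a zinc finger factor, also acts. Twist1 is a bHLH factor of cranial and lateral mesoderm and of migrating mesenchymal cells.

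Per kilobase of annotated exon, Lhx1 had the highest mean level of the 6 in both groups, with 22.8 CPM per kb in WT and 92.6 CPM per kb in Scl-/- cells. Its WT libraries ranged from 6.96 to 52.5 CPM per kb and so overlapped those of Twist1, the next in order, at 11.9 to 13.8 CPM per kb. In Scl-/- cells Lhx1 ranged from 20.2 to 175 CPM per kb and lay above Twist1, at 10.1 to 14.9 CPM per kb. Msgn1 followed Twist1 without overlap in WT, with 3.50 to 6.36 CPM per kb, and its Scl-/- range, from 6.94 CPM per kb, ended just under the lowest library of Twist1. The annotated Msgn1 model holds coding sequence only, so its level per kilobase depends on a short length of 567 bases. Tcf15 and Foxc2 overlapped each other in both groups, at 1.52 to 3.10 and 1.35 to 2.53 CPM per kb in WT and at 0.732 to 1.71 and 1.25 to 1.88 CPM per kb in Scl-/- cells. Foxc1 was the lowest on average, with 0.641 CPM per kb in WT and 0.983 CPM per kb in Scl-/- cells, and its libraries overlapped those of Foxc2 in both groups.

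**Figure D1:**
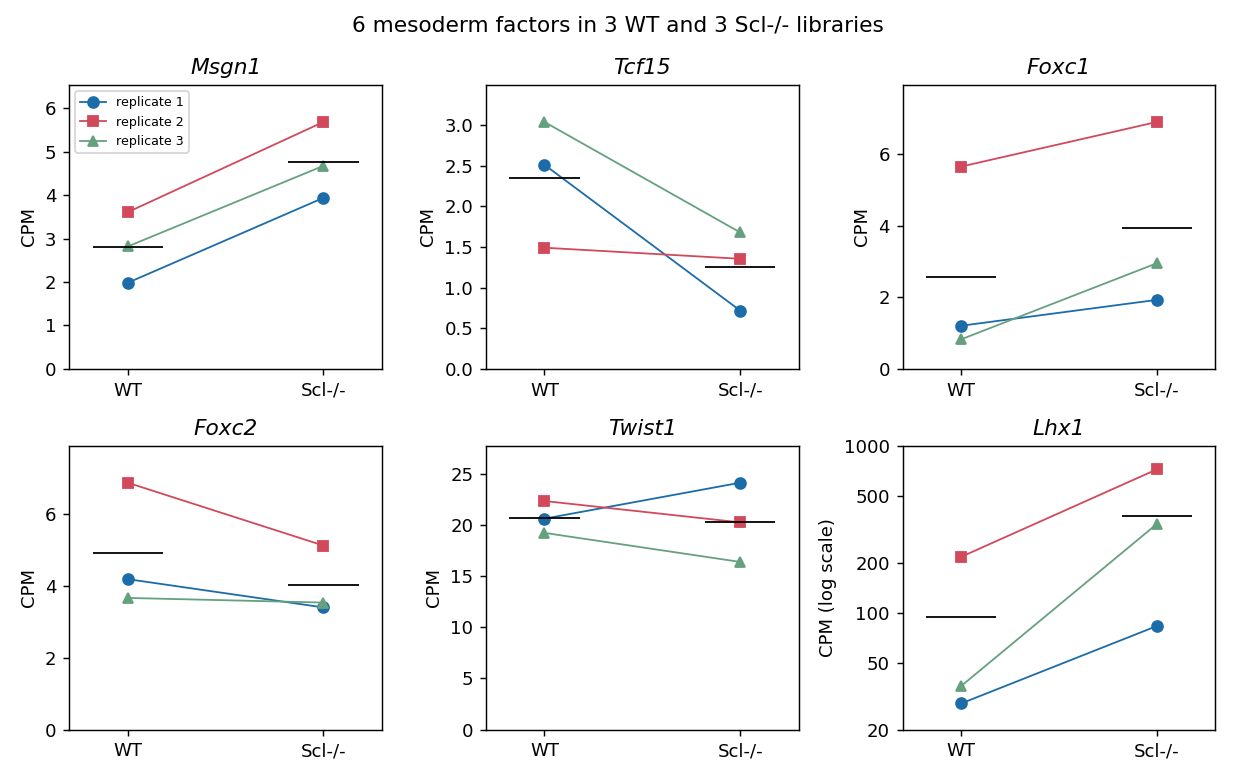
CPM of the 6 measured factors in WT and Scl-/- libraries, with a panel per gene, points joined by replicate number and black bars at the group means (n = 3). The Lhx1 axis is logarithmic; Msgn1 lay higher in Scl-/- cells in each pair with no overlap between groups (highest WT 3.61 CPM, lowest Scl-/- 3.94 CPM), and Lhx1 was higher at the Scl-/- end of each line while its groups overlapped.

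Lhx1 (ENSMUSG00000018698, chromosome 11 of mm9, 84331479 to 84338923, minus strand) had 28.7, 216 and 36.5 CPM in WT replicates 1, 2 and 3 and 83.4, 721 and 339.9 CPM in Scl-/- replicates 1, 2 and 3. Replicate 2 was the highest library of each group, at 6.64 times the mean of the other WT libraries and 3.41 times that of the other Scl-/- libraries, and the groups overlapped because WT replicate 2 lay above Scl-/- replicate 1. Within pairs, the Scl-/- library was 2.90, 3.33 and 9.31 times as high as its WT counterpart. The means were 93.8 ± 106 CPM in WT and 382 ± 321 CPM in Scl-/- cells (SD, n = 3). Its log2 fold change was 2.15, with a standard error of 0.95 and a limma adjusted p of 0.299 (95% interval -0.07 to 4.37). With the replicate block the standard error was 0.27 and the adjusted p was 0.00145 (interval 1.52 to 2.78), and the call held with each pair left out in turn (log2 fold change 1.63 to 2.47). Between 1144 and 29844 reads lay behind these values, so that counting error was small beside the spread between differentiations. In the fit without the block, the log2 fold change was 3.06 without WT replicate 2, 3.01 without Scl-/- replicate 1 and 1.45 without Scl-/- replicate 2.

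Lhx1 lies on a chromosome that was itself shifted. Over its 1211 tested genes the median log2 fold change was 0.31, beside 0.009 for all genes, and with the block 253 of those on chromosome 11 were called higher and 57 lower in Scl-/- cells. After the median deviation of each chromosome was removed from each library, the log2 fold change of Lhx1 was 1.85 and it was still called with the block (adjusted p = 0.00338), in a fit that called 10.7% of all genes. The other measured factors lie on chromosomes 2, 8, 12 and 13, whose medians were 0.006, -0.010, -0.016 and -0.015. What part the chromosome shift had in the level of Lhx1 was not tested beyond this.

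Of the tested genes that start within 250 kb of Lhx1 there were 2. The uncharacterised gene 1500016L03Rik starts 239 bases upstream on the opposite strand and does not overlap Lhx1 in the annotation. It had 1.86, 11.6 and 2.19 CPM in WT and 4.71, 27.1 and 11.5 CPM in Scl-/- replicates 1 to 3, again with replicate 2 highest in each group and with overlapping groups. Its log2 fold change was 1.50, called with the block (limma adjusted p = 0.00195) and not without it (0.377). Whether reads were counted by strand is not given in the sources used here, so reads of this divergent pair outside the annotated ends cannot be told apart. Aatf, 11.9 kb downstream of the start of Lhx1, had a log2 fold change of 0.36 and was not called with or without the block.

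Over the 6 libraries the profile of Lhx1 was compared with those of 13953 other genes, each as log2(CPM + 0.5) centred on its own mean, by the root mean square difference. The 3 nearest were Dll3, a Notch ligand of the presomitic mesoderm (0.37), Otx1, a homeodomain factor (0.43), and 1500016L03Rik (0.45). The median difference of all compared genes from Lhx1 was 1.68. Lhx1 varied around its own mean by as much (1.68), so that median reflects the large spread of Lhx1 itself. Otx1 had 0.552, 3.19 and 0.680 CPM in WT and 1.78, 13.1 and 5.58 CPM in Scl-/- replicates 1 to 3, and lies on chromosome 11 too. Likeness over 6 libraries of 2 groups is a description, and the genes share the libraries and their depth.

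**Figure D2:**
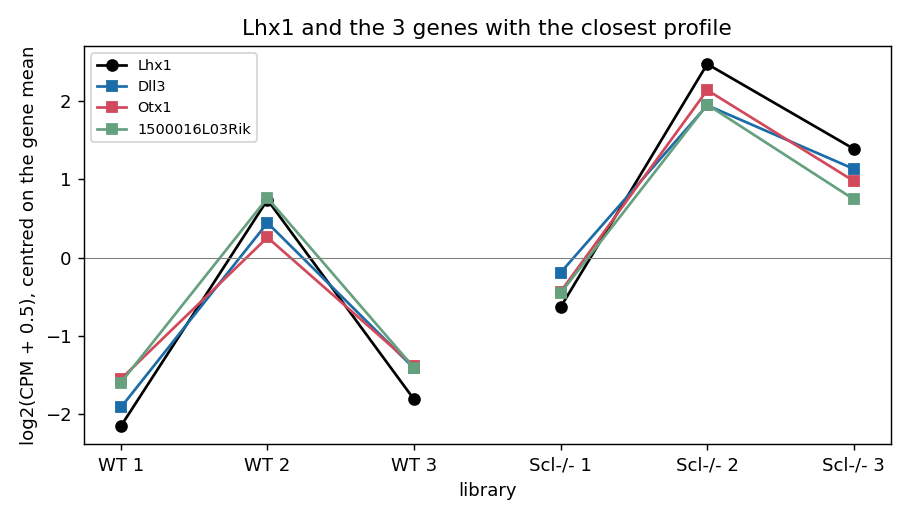
Lhx1 and the 3 genes with the most similar profile in the 6 libraries, as log2(CPM + 0.5) minus the mean of each gene over the libraries (no error is drawn, since each point is a library). All 4 genes were highest in replicate 2 of each group, and Scl-/- replicate 1 lay below WT replicate 2.

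The windows from 250 bases before to 50 bases after the RefSeq start (GRCm38.p6) are shown for Lhx1 and Msgn1, because these were the factors called with the block. RefSeq windows were at hand for 4 of the 8 factors, which were Foxc1, Msgn1, Twist1 and Lhx1. The Lhx1 window is chr11:84525485-84525784 on the minus strand, with 65.7% G and C, and the Msgn1 window is chr12:11208899-11209198 on the minus strand, with 52.3%. Capitals mark each match, on either strand, to CANNTG (the E-box that bHLH factors such as SCL, Msgn1 and Twist1 recognise), to GATA (the site of GATA factors), to AGGTGT (a T-box site), to CTTTGA (a TCF/LEF site) and to CTTTGT (a site for TCF/LEF and Sox factors).
Lhx1: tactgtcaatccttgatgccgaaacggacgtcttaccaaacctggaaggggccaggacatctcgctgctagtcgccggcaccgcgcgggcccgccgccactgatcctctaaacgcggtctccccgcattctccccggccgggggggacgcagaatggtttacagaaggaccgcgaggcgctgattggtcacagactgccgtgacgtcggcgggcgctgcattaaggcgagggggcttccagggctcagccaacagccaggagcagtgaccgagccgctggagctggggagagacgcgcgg
Msgn1: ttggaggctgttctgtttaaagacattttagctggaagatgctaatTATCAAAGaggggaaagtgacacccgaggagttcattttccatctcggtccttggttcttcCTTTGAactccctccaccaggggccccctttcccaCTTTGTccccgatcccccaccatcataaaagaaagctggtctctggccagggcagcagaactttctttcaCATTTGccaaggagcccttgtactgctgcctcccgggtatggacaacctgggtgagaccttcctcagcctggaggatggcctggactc
Lhx1 had no match in this window. Msgn1 had the E-box CATTTG 38 bases before the start, TCAAAG at 202, CTTTGA at 143 and CTTTGT at 108 bases before it, and TATC at 204, whose last letters overlap TCAAAG. The RefSeq start of Msgn1 is the start codon ATG, so its window is placed by the coding sequence. Of 32851 windows of this length, 72.3% held CANNTG, 57.9% GATA, 13.7% AGGTGT, 16.0% CTTTGA and 18.7% CTTTGT. Foxc1 had no match to the 5 motifs and Twist1 had ACACCT 6 bases before its start. These matches are letters in a window and say nothing of binding.

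Among the paraxial factors, Msgn1 (ENSMUSG00000047002, chromosome 12, 11215188 to 11215754, minus strand) had 1.98, 3.61 and 2.82 CPM in WT and 3.94, 5.68 and 4.67 CPM in Scl-/- replicates 1 to 3. Each Scl-/- library lay above each WT library, as for 21.6% of all genes in either direction, and Msgn1 alone of the 6 factors had groups that did not overlap. The Scl-/- library was 1.99, 1.58 and 1.66 times as high as the WT library of its pair. Replicate 2 was again the highest of each group, at 1.50 times the mean of the others in WT and 1.32 times in Scl-/- cells. The means were 2.80 ± 0.812 CPM and 4.76 ± 0.876 CPM (SD, n = 3), and the log2 fold change was 0.69 with a standard error of 0.24 (limma adjusted p = 0.192, 95% interval 0.13 to 1.24). With the block the standard error was 0.14 and the adjusted p was 0.0105 (interval 0.37 to 1.01). The call held without pair 1 (adjusted p with the block 0.0217) and was lost without pair 2 (0.0672) or pair 3 (0.0505), with log2 fold changes of 0.62, 0.74 and 0.71. Msgn1 was counted on 79 to 235 reads per library, which gives a counting error of 6.52% to 11.3% of each value. None of the 3 tested neighbours of Msgn1 (Smc6, Gen1 and Kcns3, with log2 fold changes of 0.10, 0.07 and 0.46) was called by limma with or without the block, and 1 of them, Kcns3, had an adjusted p of 0.0283 with the block below the fold threshold.

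Tcf15 (ENSMUSG00000068079, chromosome 2, 151969297 to 151974833, plus strand) had lower values in Scl-/- libraries. It had 2.51, 1.49 and 3.04 CPM in WT and 0.717, 1.35 and 1.68 CPM in Scl-/- replicates 1 to 3. Each Scl-/- library lay below its WT counterpart, at 0.286, 0.909 and 0.553 times its level, while WT replicate 2 lay below Scl-/- replicate 3, so the groups overlapped. Replicate 3, and not replicate 2, was the highest library of both groups. With means of 2.34 ± 0.786 and 1.25 ± 0.489 CPM (SD, n = 3), the log2 fold change was -0.70 (standard error 0.31, limma adjusted p = 0.294). With the block the standard error was 0.24 and the adjusted p was 0.0654 (95% interval -1.25 to -0.16), so Tcf15 was not called in either fit. Only 35 to 125 reads per library lay behind it, and the pseudocount understates the change of a gene this low. The ratio of Msgn1 to Tcf15 was 0.790, 2.42 and 0.928 in WT and 5.49, 4.20 and 2.78 in Scl-/- replicates 1 to 3, without overlap. Msgn1 was higher and Tcf15 lower in each pair, so this ratio had to rise in each pair and is no separate result. How often the ratio of other genes was without overlap was not counted.

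The log2 fold changes of the paralogues Foxc1 and Foxc2 had opposite signs, neither was called, and their difference was not tested. Foxc1 (ENSMUSG00000050295, chromosome 13, 31898515 to 31902504, plus strand) had 1.20, 5.64 and 0.826 CPM in WT and 1.93, 6.89 and 2.95 CPM in Scl-/- replicates 1 to 3. It was highest in replicate 2 of both groups, at 5.56 times the mean of the others in WT and 2.83 times in Scl-/- cells, and the groups overlapped. Pair by pair, the Scl-/- level was 1.60, 1.22 and 3.57 times the WT level. The log2 fold change was 0.72 (standard error 0.63, limma adjusted p = 0.652; with the block 0.22 and 0.0511), which missed the threshold. The study, which used edgeR, names Foxc1 among the SCL-bound genes that SCL repressed. Neither of these fits called Foxc1, and edgeR was not run here. Foxc1 was called with the block where pair 1 was left out (adjusted p = 0.0301), and without pair 3 its log2 fold change fell to 0.39.

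Foxc2 (ENSMUSG00000046714, chromosome 8, 123640071 to 123642792, plus strand) had 4.19, 6.87 and 3.67 CPM in WT and 3.40, 5.12 and 3.54 CPM in Scl-/- replicates 1 to 3. Replicate 2 was the highest here too, and each Scl-/- library was a little below its WT counterpart, at 0.812, 0.746 and 0.965 times its level, with overlapping groups. The log2 fold change of -0.23 was within the spread (standard error 0.26, limma adjusted p = 0.757; 0.267 with the block, 95% interval -0.55 to 0.09). Per kilobase, the ratio of Foxc2 to Foxc1 was 5.10, 1.78 and 6.51 in WT and 2.59, 1.09 and 1.76 in Scl-/- replicates 1 to 3. It was lower in Scl-/- cells in 3 of 3 pairs, although the groups overlapped. Foxc1 was higher and Foxc2 lower in each pair, so this ratio had to fall in each pair and is no separate result. The summed CPM of the paralogues was 5.39, 12.5 and 4.49 in WT and 5.33, 12.0 and 6.49 in Scl-/- cells, highest in replicate 2 of both groups. Of the 3 tested neighbours of Foxc2, all on the side of the adjacent forkhead gene Foxf1 (log2 fold change -0.61, not called), 1 was called with the block, the gene ENSMUSG00000087156 (-1.06, limma adjusted p = 0.0240), and 0 without it.

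Twist1 (ENSMUSG00000035799, chromosome 12, 34642536 to 34644682, plus strand) had 20.6, 22.3 and 19.2 CPM in WT and 24.1, 20.2 and 16.4 CPM in Scl-/- replicates 1 to 3. Scl-/- replicate 1 was the highest of all and Scl-/- replicate 3 the lowest, with the WT libraries between them. Its log2 fold change was -0.05, with a 95% interval of -0.43 to 0.33 (limma adjusted p = 0.948) and of -0.30 to 0.21 with the block (0.802). Twist1 was counted on 722 to 1176 reads per library. In WT it was the steadiest of the 6, with its highest library at 1.16 times the lowest, and in Scl-/- cells that range was 1.47 times, where the same ranges were 7.54 and 8.65 times for Lhx1. The ratio of Lhx1 to Twist1 therefore moved with Lhx1, from 1.39, 9.69 and 1.90 in WT to 3.46, 35.7 and 20.8 in Scl-/- replicates 1 to 3.

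Meox1 (chromosome 11, 101738824 to 101755688, minus strand) and Osr1 (chromosome 12, 9581248 to 9588305, plus strand) gave no value here. Of the 8 tested genes that start within 250 kb of Meox1, 3 were called with the block. These were Arl4d (log2 fold change 1.50), the ETS factor Etv4 (1.05) and Sost, a WNT and BMP antagonist (-1.11). They lie on the shifted chromosome 11, where the block fit called 253 of 1211 tested genes higher and 57 lower. The values quoted for them are without removal of the chromosome median (0.31). Osr1 and Twist1 had 0 tested genes within 250 kb.

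**Figure D3:**
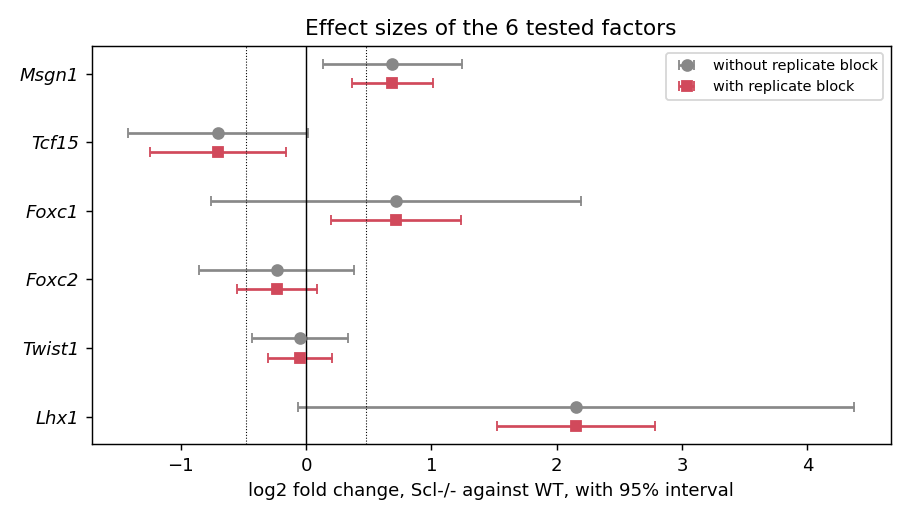
Log2 fold change of the 6 factors, Scl-/- against WT, on log2(CPM + 0.5), with 95% intervals from limma without (grey circles) and with (red squares) the replicate block (n = 3 per group); dotted lines mark the fold threshold of 0.48 in both directions. The block leaves each estimate where it is and narrows its interval, for Lhx1 from -0.07 to 4.37 down to 1.52 to 2.78.

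Over the 6 factors, 5 moved in the same direction in 3 of 3 pairs (3 higher, 2 lower), beside 56.2% of all genes, and the median log2 fold change was 0.32 beside 0.009 for all genes. Replicate 2 held the highest library of both groups for Lhx1, Foxc1, Foxc2 and Msgn1. By root mean square difference, none of the factors was among the 3 genes nearest another. That measure counts the size of changes as well as their shape, and likeness of shape alone was not measured. The closest of their pairs was Foxc2 and Twist1, with a root mean square difference of 0.32, and 3776 other genes lay closer to Foxc2. Foxc2 varied around its own mean by about as much (0.32). Foxc1 and Msgn1 differed by 0.65, with 506 genes closer to Foxc1, and Foxc1 and its paralogue Foxc2 by 0.72, with 972 genes closer. Among the genes nearest in profile were Socs3, Tenm4 and Pappa for Foxc1 (0.15, 0.20 and 0.21), Pknox2, Ociad2 and Pdcd4 for Foxc2 (0.05, 0.08 and 0.09), Chst10, Naip6 and Zfpm1 for Tcf15 (0.15, 0.16 and 0.17), Mpdu1 and Dnd1 for Msgn1 (0.09 for both) and Ccnj, Mex3a and Hp1bp3 for Twist1 (0.03, 0.04 and 0.05).

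Other genes of the same divisions were read from the same fits. Of 26 further genes of the paraxial mesoderm and somite, 11 had a row, and limma with the block called 8 of them higher and 1 lower in Scl-/- cells. Without the block 0 were called. Their median log2 fold change was 1.03 (range -0.53 to 1.92). Dll3 had 6.40, 34.9 and 9.25 CPM in WT and 22.3, 99.7 and 56.5 CPM in Scl-/- replicates 1 to 3, and in each pair the Scl-/- library was the higher (log2 fold change 1.92, adjusted p with the block 3.6e-04). The Notch modulator Lfng (1.40, 4.8e-04), the segmentation factor Mesp2 (1.38, 0.00950) and the protocadherin Pcdh8 (1.21, 0.00512) were the next in size of those called with the block. Dll1, Pcdh19, Tbx6 and Fgf8 were also called higher and Aldh1a2, which makes retinoic acid in somites, lower, while Epha4 and Rspo3 were not called. With chromosome medians removed the block fit called 7 of the 11, without Dll1 and Aldh1a2. Without pair 1, 2 or 3 the block fit called 8, 5 and 6 of the 11. The 15 without a row include most of the genes of formed somites on the list, such as Pax1, Pax3, Pax7, Pax9, Uncx, Meox2, Nkx3-2 and Myf5.

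Intermediate mesoderm gave a divided picture. Of 14 genes 8 had a row, their median log2 fold change was -0.10, and the block fit called 3 higher and 2 lower. Emx2, a homeodomain factor of the urogenital system, was at 1.00, 0.679 and 1.80 CPM in WT and 0.0820, 0.121 and 0.0454 CPM in Scl-/- replicates 1 to 3, without overlap. It was the only gene of the list called without the block (log2 fold change -1.46, limma adjusted p = 0.0488; 0.00591 with the block). That call was lost with a pseudocount of 1, with chromosome medians removed and when any library but WT replicate 2 was left out, and the size of the change depends on the pseudocount because the Scl-/- values are near the limit of counting. Wnt9b (0.79), Sall1 (0.66) and Six2 (0.62), genes of the nephric duct and the kidney progenitors, were called higher with the block. Wnt9b lies on chromosome 11 and was not called with the block once chromosome medians were removed. Without pair 3 the block fit called 2 of the 8, without pair 2 it called 3, and without pair 1 it called 6. Pax2, Pax8, Osr2, Wt1 and Sim1 are among those with no row in the table used here.

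Lateral plate genes leaned neither way. Of 20 genes 14 had a row, and their median log2 fold change was -0.11. With the block limma called 4 higher (Prrx2, Irx3, Isl1 and Gata4, with log2 fold changes of 0.71, 0.68, 0.57 and 0.55) and 1 lower, the T-box factor Tbx4 (-1.42, adjusted p = 0.00125). Tbx4 had 8.13, 1.20 and 5.61 CPM in WT and 2.40, 0.314 and 1.50 CPM in Scl-/- replicates 1 to 3, lower in each pair and lowest in replicate 2. The other 9 were not called, and for Hand1, Hand2, Foxf1, Bmp4, Msx2 and Tbx20 pair 1 went the other way from pairs 2 and 3. Without the block 0 were called. Without pair 3 the block fit called 1 of the 14, without pair 2 it called 3 and without pair 1 it called 7. With chromosome medians removed it called 6, since Hand1, on chromosome 11, was then called lower (log2 fold change -0.76, against -0.45 before).

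**Figure D4:**
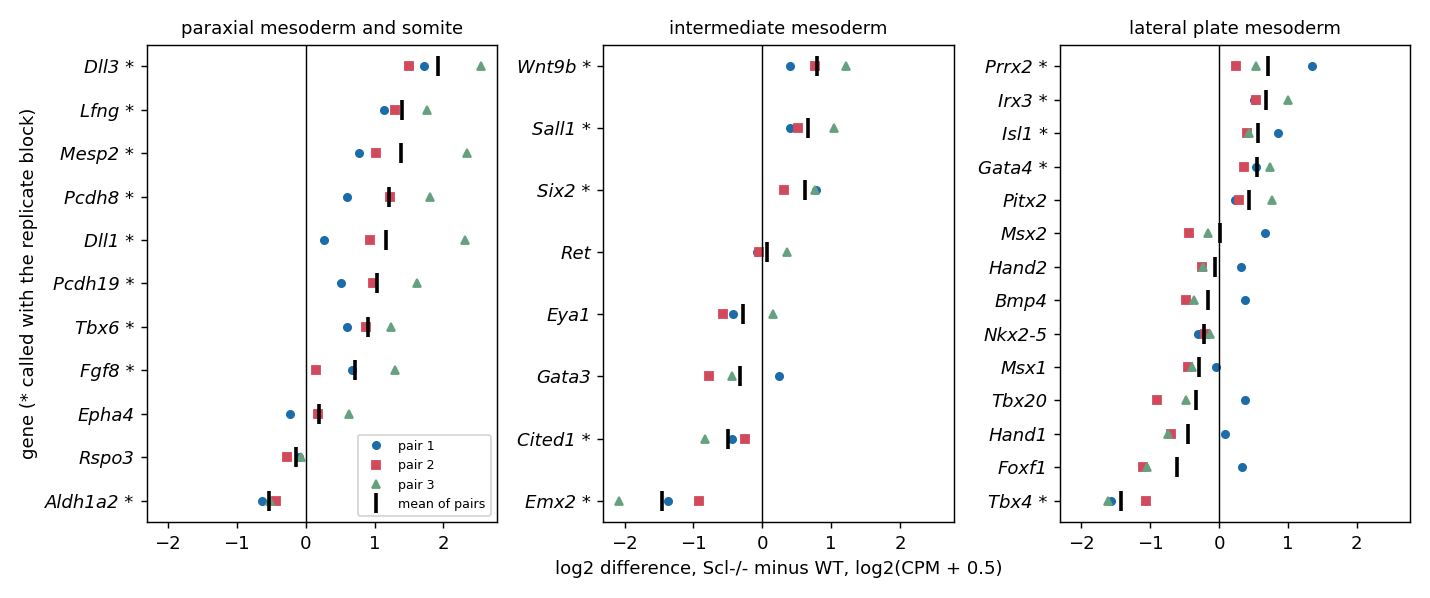
Difference in log2(CPM + 0.5), Scl-/- minus WT, in each of the 3 pairs for the tested genes of the paraxial, intermediate and lateral plate lists, with black bars at the mean of the pairs. Stars mark genes called with the replicate block. Called to the right of 0 were 8 of 11 paraxial, 3 of 8 intermediate and 4 of 14 lateral plate genes, beside 6.04% of all genes. The lists were drawn up with earlier results of these data known, and the study names Six2 and Irx3, placed here in the other lists, as paraxial. A difference between the lists was not tested.

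Among the relatives of the 8 factors by family, 7 of 33 had a row. The block fit called Mesp1, Mesp2 and Isl1 higher (log2 fold changes of 1.40, 1.38 and 0.57). These are not further calls, since the lists overlap. Mesp2 is also on the paraxial list, Isl1 on the lateral plate list and Mesp1 among the markers of nascent mesoderm. The forkhead genes Foxf1 and Foxh1, the Twist1 paralogue Twist2 and the Lhx1 relative Lhx2 were not called. All 13 genes of the bHLH dimer partners and LIM cofactors had a row, among them Tcf3, Tcf4 and Tcf12, which pair with tissue bHLH factors, and Ldb1, which bridges LIM factors. Only Id4, an inhibitor of bHLH factors, was called with the block, at 7.10, 7.63 and 6.92 CPM in WT and 5.47, 4.42 and 4.51 CPM in Scl-/- replicates 1 to 3 (log2 fold change -0.55, limma adjusted p = 0.0208). Without the block 0 genes of either list were called. The median log2 fold changes of these lists were 0.38 and -0.11.

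Markers of other cells moved with genotype beside these results. In bulk RNA, fewer cells of a type and less RNA per cell cannot be told apart. Kdr, the gene of the FLK1 surface marker used for isolation, had 832 to 868 CPM in WT and 724 to 810 CPM in Scl-/- libraries and was not called. The other 7 of 8 markers of nascent mesoderm (among them T, Eomes and Mixl1) were called higher with the block, and the summed CPM of the list was 1715 to 2151 in WT and 2223 to 3122 in Scl-/- libraries. Of 8 pluripotency markers the block fit called 3 higher (Tdgf1, Nanog and Pou5f1) and 1 lower (Esrrb), and their sum was 222 to 529 CPM in WT and 316 to 919 CPM in Scl-/- libraries, with replicate 2 highest in both for Tdgf1. The 3 blood markers with a row of 6 fell with and without the block, from a sum of 16.2 to 43.1 CPM to 2.44 to 3.06 CPM, and Hbb-bh1 was at 0 in all 3 Scl-/- libraries. Of 6 endothelial markers 5 had a row and all 5 were called lower with the block (2 without), with sums of 108 to 280 CPM in WT and 11.4 to 49.5 CPM in Scl-/- libraries. Myl7 alone of 4 cardiac markers was called, higher with the block (log2 fold change 1.83), and the sums were 22.1 to 26.0 and 32.0 to 46.7 CPM. Myl7 and Myl4 lie on the shifted chromosome 11, and the sums were not corrected for the shift. With chromosome medians removed Myl7 had a log2 fold change of 1.53 and was still called with the block. That of Myl4 went from 0.34 to 0.03. Sox17, the 1 of 8 genes on the endoderm list with a row and a gene of endothelium too, was called lower with the block (-2.10). Neither Pax6, the 1 neural marker of 6 with a row, nor the 3 fibroblast markers of 6 with a row were called. The part of these marker levels in the values of Lhx1, Msgn1 and the paraxial genes was not tested.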

How the data were processed

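Total RNA of FLK1+ day 3.5 EB cells was sequenced from 3 WT and 3 Scl-/- cultures. The authors aligned reads to mm9 with TopHat2 2.0.8b, removed duplicate read pairs, kept reads with mapping quality above 15 with SAMtools 0.1.19, normalised with the TMM method of edgeR and deposited CPM values for 14005 genes. The tool and annotation used for counting are not given in the sources used here. Removal of duplicates can lower the values of short and of highly expressed genes. Every CPM value was a whole multiple, within 0.1 of a step, of the value of 1 read in its library (100% of values), which gave the reads quoted.

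A gene was tested where 3 or more libraries reached 0.5 CPM (14 rows did not pass). Values were tested as log2(CPM + 0.5) with limma 3.58.1 (lmFit, eBayes with an intensity trend) in R 4.3.3, with genotype as the only term, on all 6 libraries. The Benjamini-Hochberg adjustment ran over 13991 genes. For low genes the pseudocount makes a change look smaller than it is. A second fit added the replicate number as a block. The pairing comes from the series design, which describes independent differentiations, and from the data. Deviations from the group means correlated across genes at 0.59, 0.76 and 0.75 for same-numbered libraries and at -0.62 to -0.10 for the others. Deviations from a group mean cancel within the group, so positive values for same-numbered libraries make the others negative on average. The test was tried on simulated data without a chromosome shift. The outcome is not reported here and is no support for the calls. Positions and exon lengths come from GENCODE vM1 (mm9), promoter windows from RefSeq (GRCm38.p6).

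Genes named are the 8 factors, Tal1, up to 4 genes per list with the largest absolute log2 fold change among those called, tested genes starting within 250 kb of a factor, and the 3 genes nearest each factor in profile with a mean of at least 1 CPM. Other list genes were named after their values were seen, and some items under the rule are not reported here. The factors and the gene and marker lists were chosen with earlier results of these data known. Other steps used Python 3.11.15, pandas 2.3.3 and NumPy 2.4.6, and figures Matplotlib 3.10.9. Alternatives were the pseudocount, the filter, the block, median-ratio rescaling, omission of each library, removal of chromosome medians, no intensity trend and other fold thresholds. Pairs left out of the block fit, and the block with other pseudocounts, were added after seeing the data.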

Additional observations from a re-analysis of the deposited data

How the results depend on the processing

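The count of all genes called was 330 and that of the 6 factors was 0, and without the block no alternative run called a factor. With the replicate block 1768 genes and 2 factors (Lhx1 and Msgn1) were called, and with chromosome medians removed as well 1492 genes and 2 factors. In the block fit, leaving out pair 1, 2 or 3 gave 2062, 1122 and 1210 genes and 3 (with Foxc1), 1 and 1 factors (Lhx1 in both), and pseudocounts of 0.1 and 1 gave 1822 and 1669 genes and 2 and 3 factors, the last again with Foxc1 (its adjusted p just under the threshold). Leaving out each library in turn gave 44 to 384 genes, with 44 without WT replicate 1, 128 without WT replicate 3, 129 without Scl-/- replicate 2 and 162 without Scl-/- replicate 3, and 0 factors each time. Those fits assume that a group left with fewer libraries varies like the other. Over these omissions the log2 fold change was 1.45 to 3.06 for Lhx1, 0.50 to 0.86 for Msgn1, 0.27 to 1.40 for Foxc1, -0.94 to -0.46 for Tcf15, -0.40 to 0.01 for Foxc2 and -0.18 to 0.09 for Twist1. The sign turned for Foxc2 without WT replicate 2 (0.0124) and for Twist1 without WT replicate 2 (0.00736), without Scl-/- replicate 3 (0.0934) and in the block fit without pair 3 (0.0418), where neither gene was called. Median-ratio rescaling moved the median of all genes from 0.009 to -0.002. Tcf15 was not tested with a mean of at least 2 CPM. Count models were not run, because low values are too rare in the table for the test of whole reads. The lowest factors, Foxc1 and Tcf15, rest on as few as 34 and 35 reads in a library.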

Other observations

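Some of the genes nearest in profile to Msgn1 and Tcf15 were themselves called with the replicate block. Dnd1, a germ cell RNA-binding protein gene, had 2.56, 4.86 and 3.98 CPM in WT and 4.78, 8.24 and 6.76 CPM in Scl-/- replicates 1 to 3, with overlapping groups (log2 fold change 0.73, limma adjusted p with the block 0.00569). Beside Tcf15 stood Zfpm1 (FOG1), a cofactor of GATA factors in blood, with 257, 205 and 301 CPM in WT and 138, 156 and 185 CPM in Scl-/- replicates 1 to 3, and every Scl-/- library was under every WT library (log2 fold change -0.66, limma adjusted p with the block 0.00216, without it 0.0991). The other genes nearest to Tcf15, Chst10 and Naip6, had log2 fold changes of -0.67 and -0.94 and adjusted p values with the block of 0.0291 and 0.0166. These genes were picked for their likeness to the factors, so their direction is no separate support.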
